A study of Drosophila melanogaster with 8 samples.

Results

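CG14963, CG11911, CG43680, CG34040 and CG34166 are 5 protein-coding genes of Drosophila melanogaster about which the deposited annotation says little, and they were chosen because each differed in the same direction between a high-fat and a normal diet in males and in females. All 5 were found by symbol in the tables of both sexes, among 17655 genes, and all 5 were among the 9848 genes listed at 1 FPKM or more (a fragment rate adjusted for transcript length and sequencing yield) in at least 1 library of each sex. The study concerned transcript levels in flies fed a high-fat diet, alone or with quercetin glucoside (QG), a glucose-bearing plant flavonol, or epigallocatechin gallate (EGCG), a tea catechin. Canton S flies, a common wild-type strain, spent 7 days on HFD (the high-fat diet), HFD+QG, HFD+EGCG or ND (the normal diet), and all of them then spent 2 h on standard diet. They were adults of 15 days, and whole bodies stripped of wings and legs were used. The labels give neither the doses nor the fat content nor the number of flies in a library. Each of the 8 combinations of diet and sex has 1 library, so a difference between diets within a sex has no replicate check, and p-values below rest on how libraries vary among themselves, in part perhaps for technical reasons. In RNA from whole bodies, fewer cells of a type and less RNA per cell cannot be told apart.

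A single member has a biochemical function in the deposited annotation. CG11911 encodes a serine endopeptidase of the chymotrypsin family (peptidase S1A), with the histidine and serine active sites of trypsin-like enzymes. Many proteases of that family are secreted into the fly midgut, where they cleave the proteins of food. CG14963 carries the "insect allergen-related" feature, named after cockroach allergens, which are proteins of the insect gut. CG34040 carries a domain of unknown function, DUF753, and CG43680 and CG34166 have no named protein feature. By the developmental profiles quoted in that annotation, CG14963 is highest in larvae and early pupae, CG34166 in late larvae, CG34040 in adult males, and CG11911 in late embryos, larvae and adults of both sexes. None of this text gives CG43680 a profile.

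The genes are short, and their positions are those of the deposited tables, which match BDGP6.54. CG14963 (FBgn0035409) lies at 3L:3171614-3172545 on the minus strand, has 1 exon and encodes 261 amino acids. CG11911 (FBgn0031249) lies at 2L:320279-321248, also minus, with 1 exon and 277 amino acids. CG43680 (FBgn0263763), at 3L:15052998-15053351 on the minus strand, has 1 exon of 354 nt that holds only 49 codons, the rest being untranslated. CG34040 (FBgn0054040), at 2R:21832501-21833551 on the minus strand, has 2 exons and 281 amino acids. CG34166 (FBgn0085195), at 2L:14743193-14743879 on the plus strand, has 2 exons and 82 amino acids, and its 4 listed transcripts share that coding length and differ in their untranslated ends. CG11911 lies inside an intron of the phospholipase C gene Plc21C, which runs the other way, and CG43680 inside an intron of the synaptotagmin gene Sytbeta on the same strand. CG14963 overlaps an exon of CG32278 on the opposite strand by 154 bp. Whether the authors' counting used strand is not given in the sources used here, so reads from that stretch may belong to either gene.

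CG14963 was listed at 17 FPKM on ND, 58 on HFD, 77 on HFD+QG and 95 on HFD+EGCG in males, and at 6, 70, 61 and 76 FPKM on the same diets in females. All 6 libraries of the high-fat diets lay above both ND libraries. Its difference between HFD and ND was 1.71 on the log2(FPKM + 1) scale in males and 3.34 in females. It thereby went from above 23.2% of the genes compared in the ND female library to above 84.8% of them in the HFD female library, and from 51.9% to 82.0% in males.

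CG11911, the protease gene, was listed in males at 67 FPKM (ND), 293 (HFD), 214 (HFD+QG) and 270 (HFD+EGCG), and in females at 264, 789, 956 and 920 FPKM. Within each sex ND was lowest, and the female ND library lay within the range of the male high-fat ones. The HFD minus ND difference was 2.11 in males and 1.58 in females. It was the most abundant member on the high-fat diets, above 98.1% to 98.5% of the genes compared in the females.

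CG43680 was listed at 40, 126, 93 and 139 FPKM for the males and at 80, 225, 148 and 203 FPKM in females. Its HFD minus ND difference was 1.63 in males and 1.48 in females, the closest match between the sexes among the members. In both sexes its HFD+QG library was the lowest of the 3 high-fat libraries and still above ND.

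**Figure D1:**
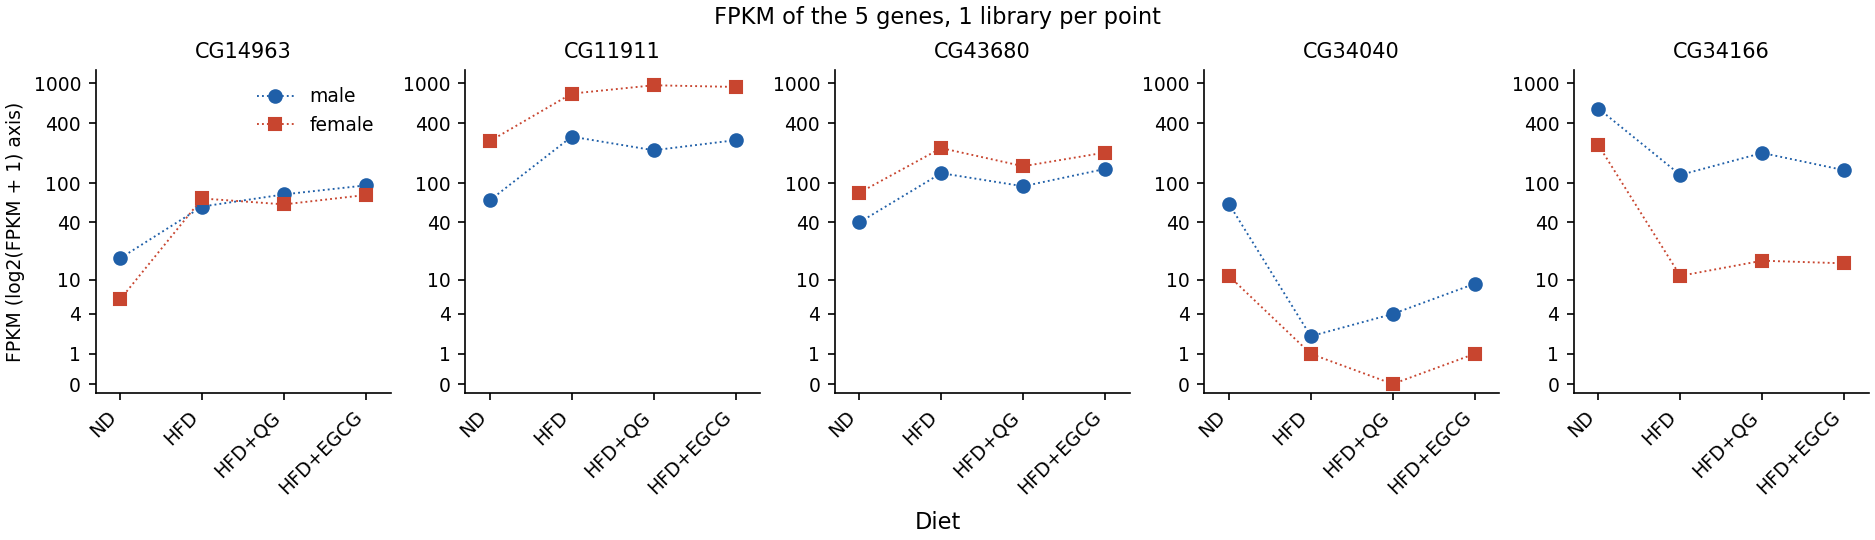
FPKM of each gene (vertical axis, drawn as log2(FPKM + 1) and labelled in FPKM) on the 4 diets (horizontal axis) in males (blue circles) and females (red squares), 1 library per point, so no error bars can be drawn. CG14963, CG11911 and CG43680 are lowest on ND in both sexes, with CG14963 at 17 and 6 FPKM there, and CG34040 and CG34166 are highest on ND, with CG34166 at 560 and 241 FPKM.

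CG34040 and CG34166 went the other way. CG34040 was listed at 62 FPKM on ND in males and at 2, 4 and 9 FPKM on HFD, HFD+QG and HFD+EGCG. In females it was at 11 FPKM on ND, 1 on HFD, a listed 0 on HFD+QG and 1 on HFD+EGCG. The ND library was the highest in each sex, and the low values stand within a few rounding steps of 1 FPKM, so their ratios are coarse. The HFD minus ND difference was -4.39 in males and -2.58 in females.

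CG34166 was listed at 560 FPKM on ND in males and at 121, 201 and 135 FPKM on HFD, HFD+QG and HFD+EGCG. Females had 241 FPKM on ND and 11, 16 and 15 FPKM on the high-fat diets. The HFD minus ND difference was -2.20 in males and -4.33 in females. On ND it was above 97.8% of the genes compared in males and 95.6% in females. On HFD it was still above 91.2% of them in males but above only 33.5% in females.

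The lower listed level of CG34166 was spread over its transcripts. Transcript RB held the largest share in every library, with 418 of 560 FPKM in ND males and 81 of 121 in HFD males, or 74.6% and 66.9%. In females RB was at 145 FPKM on ND, 60.2% of the gene, and at 11 FPKM on each of the 3 high-fat diets. RC was at 90, 31, 48 and 10 FPKM for the males and at 76, 0, 3 and 3 FPKM in females. RD was at 38, 8, 16 and 10 FPKM in males, and RA at 14, 1, 0 and 6 FPKM. The division of reads among transcripts this alike is the authors' software estimate, so the sum over them is firmer than any share.

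**Figure D2:**
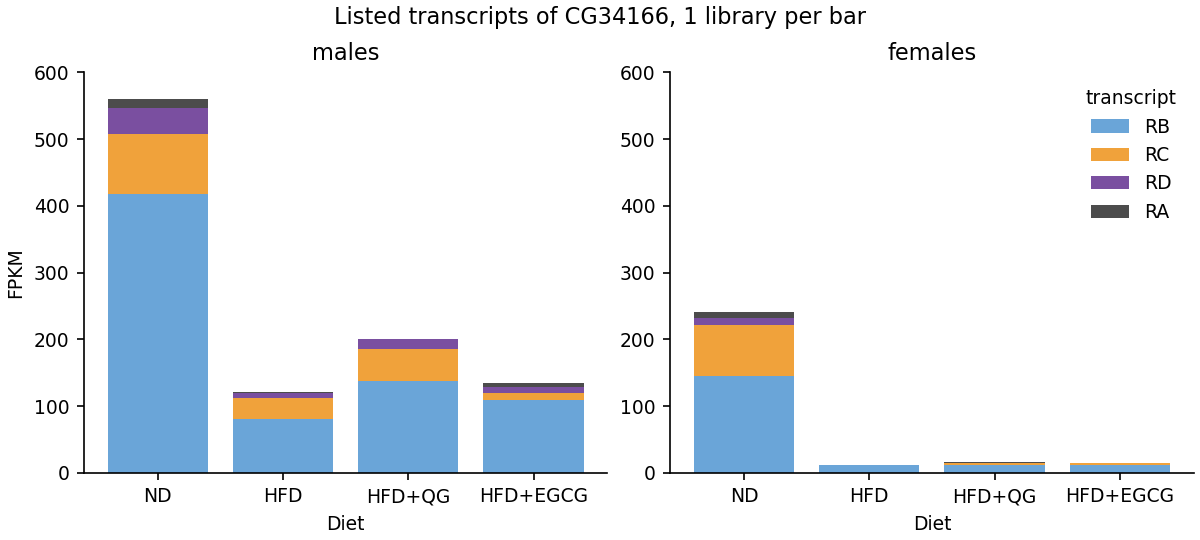
Stacked FPKM (vertical axis) of the 4 listed transcripts of CG34166 on the 4 diets (horizontal axis), males left and females right, 1 library per bar. RB is the largest block in each bar, with 418 FPKM in ND males and 11 FPKM in each of the 3 high-fat female libraries.

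The HFD minus ND difference is what the members were chosen on, so their place among all genes is given as a description. Of the genes compared, 0.447% were at least 2-fold higher on HFD in both sexes and 0.609% at least 2-fold lower in both. By sex, the shares past 2-fold were 1.62% upward and 2.98% downward in males, against 14.9% and 5.22% in females. In females the median of all genes was -0.12, and 74.0% of the 2-fold genes were higher, a share that became 93.6% after median-centring. In males it was 35.3%, and 21.8% after rescaling to a common FPKM sum. Median-centring took off each library's own median. It overshot in females, moving the median difference from -0.12 to 0.15, so the 93.6% is not a share with that offset removed. Relative to the female median of -0.12 the differences of CG14963, CG11911, CG43680, CG34040 and CG34166 were 3.47, 1.70, 1.60, -2.46 and -4.21. Counted from the highest, CG14963 ranked 10 of 9848 in females and CG11911 ranked 19 in males. Counted from the lowest, CG34040 ranked 6 in males and CG34166 ranked 6 in females.

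**Figure D3:**
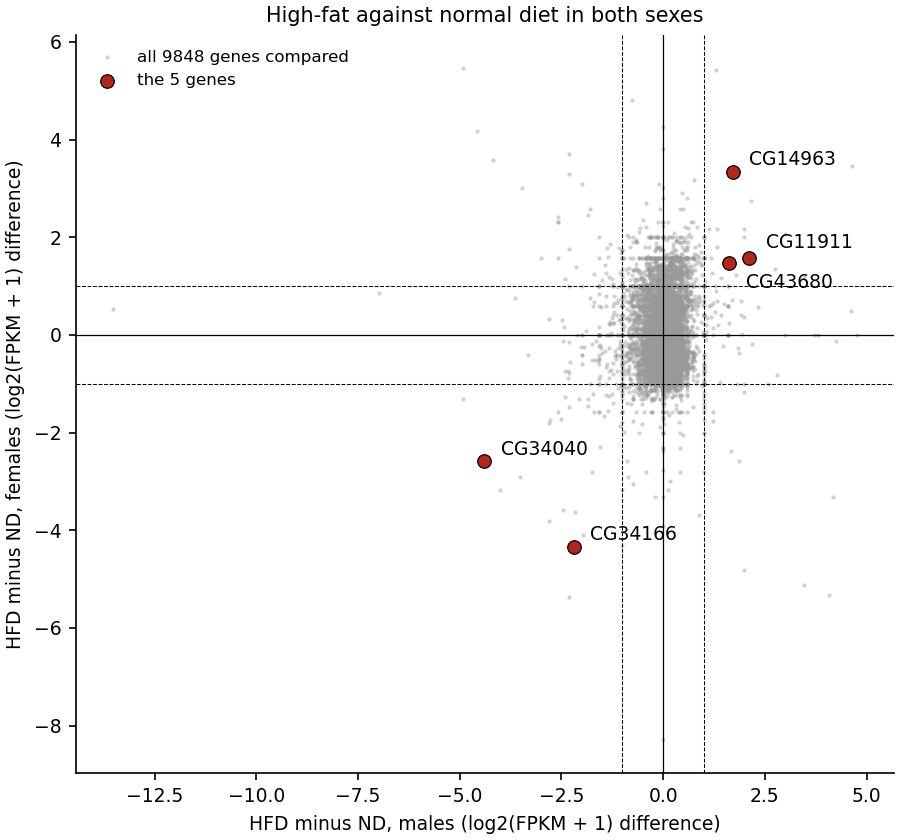
HFD minus ND difference of log2(FPKM + 1) in males (horizontal axis) and in females (vertical axis) for the 9848 genes compared (grey) and the 5 chosen genes (red), with dashed lines at 2-fold. CG14963, CG11911 and CG43680 lie to the upper right, at 1.71, 2.11 and 1.63 in males, and CG34040 and CG34166 to the lower left, at -4.39 and -2.20 in males, which is how they were chosen.

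Marker genes of several tissues differed between the same libraries. On HFD, 10 of 10 muscle genes were above ND in each sex, with summed levels that went from 4601 to 6465 FPKM between the ND and HFD males and from 1916 to 4743 between the females. Of 13 midgut genes, 9 were below ND in males and 12 in females, with sums of 11465 and 9887 FPKM and of 17962 and 12099. Those 13 were listed with earlier results of these data known, so they do not stand for all midgut genes. Trypsin genes outside the list, named here after their values were seen, went both ways in females. On ND and HFD zetaTry was at 28 and 77 FPKM, iotaTry at 44 and 107 and epsilonTry at 1004 and 540. All 13 egg shell and yolk genes were at least 2-fold lower in HFD females, at 41100 and 6599 FPKM in sum, and 11 of them, Yp1 and Cp36 among them, were at 0 in all males. The 10 fat body genes summed to 633 and 364 FPKM for the males and to 800 and 361 in females, with Lsp1gamma, Fbp1 and Fbp2 at 0 in all 8 libraries. Their median difference was -0.18 in males, with 1 gene above ND and 5 below. In females it was -0.04, with 2 above and 5 below. The female sums lean on Lsp1beta, which stood at 367 FPKM on ND and 29 on HFD. The 8 neuron and eye genes summed to 5115 and 6980 FPKM for the males and to 1418 and 3902 in females. In males 6 of them were above ND and 2 below, with 0 past 2-fold, and in females all 8 were at least 2-fold higher. All 7 female germline genes were at least 2-fold lower in HFD females. Of the haemocyte genes 5 were below ND and 0 above in each sex. Accessory gland and testis genes had median differences of only 0.04 and 0.09 in males. The part of these tissues in the members' differences was not tested.

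On the supplemented high-fat diets every member stayed on the HFD side of ND in both sexes. HFD+QG and HFD+EGCG are compared with ND through the library that the choice of members used, so this too is a description. In 11.9% of all genes compared, the 3 high-fat libraries all lay above ND in both sexes, and in 10.1% they all lay below. Across those 3 libraries CG14963 spanned 0.70 log2 units in males and 0.31 in females, CG11911 0.45 and 0.28, CG43680 0.57 and 0.60, and CG34166 0.73 and 0.50. CG34040 spanned 1.74 in males, from 2 to 9 FPKM, and 1.00 in females, from a listed 0 to 1 FPKM. Among all genes compared the median span was 0.17 in males and 0.18 in females.

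Against HFD, on the log2(FPKM + 1) scale, no member was at least 2-fold different with QG in males, where 1.32% of genes lay 2-fold or more above HFD and 1.39% below it. In females CG34040 alone was past that bound, by the single step from 1 FPKM to a listed 0, against 1.95% of genes higher and 2.28% lower. With EGCG, CG34040 was past it in males, at 2 and 9 FPKM, against 1.79% of genes higher and 1.37% lower. No member was past it with EGCG in females, where the shares were 1.81% and 2.38%. No member was past it in the same direction in both sexes. Across all genes that held for 0.244% higher and 0.223% lower with QG and for 0.254% higher and 0.203% lower with EGCG. With QG, 48.7% of the 2-fold genes were higher in males (63.0% once libraries had equal sums) and 46.0% in females (17.9% after median-centring). With EGCG these were 56.6% (71.3%) and 43.2% (17.6%). Median-centring moved the female median difference from 0.0 to -0.07 in both comparisons. The 17.9% and 17.6% thus hold a shift that the listed values lacked. Both supplement comparisons share the HFD library with the choice of members. CG34166 was the one member above its HFD value in all 4 supplemented libraries, a pattern that 5.86% of all genes had, at 201 and 135 FPKM against 121 in males and 16 and 15 FPKM against 11 in females. By its highest transcript alone the female part was gone, since RB was at 11 FPKM on all 3 diets.

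The difference between HFD+QG and HFD+EGCG is taken from libraries that the choice of members did not use, and it was tested over all 9848 genes in an additive model of sex and diet (limma, Benjamini-Hochberg adjustment). The error of that fit also draws on the ND and HFD libraries, so its intervals are not free of the choice. No member passed, at an adjusted p of 1 for each, and 0.0% of all genes did, with 83 at an unadjusted p under 0.05 and 0 also called without a trended prior. CG43680 was lower with QG than with EGCG in both sexes, at 93 against 139 FPKM (males) and 148 against 203 FPKM (females), a mean difference of -0.51 (SE 0.14, 95% interval -0.87 to -0.16; limma, unadjusted p 0.0128, adjusted p 1). The intervals of the others held 0, and they were -1.26 to 0.65 for CG14963, -0.61 to 0.33 for CG11911, -2.26 to 0.26 for CG34040 and -1.15 to 1.81 for CG34166. The widths depended on the libraries behind the error. With the 6 high-fat libraries alone 406 genes were at an unadjusted p under 0.05 (limma), against the 83 above, and 0 passed adjustment. The lack of calls therefore does not show that HFD+QG and HFD+EGCG gave like levels. On the 6 high-fat libraries alone the intervals were -0.96 to 0.34 for CG14963, -0.83 to 0.55 for CG11911, -0.80 to -0.23 for CG43680, -2.89 to 0.89 for CG34040 and -0.14 to 0.79 for CG34166, so that only that of CG34040 still reached past 2-fold. On the 4 HFD+QG and HFD+EGCG libraries alone, a fit added after the data were seen and left with 1 residual degree of freedom, no member passed either (limma, lowest adjusted p 0.412). There the intervals were -0.40 to -0.21 for CG14963, -1.02 to 0.74 for CG11911, -0.80 to -0.23 for CG43680, -1.06 to -0.94 for CG34040 and -0.76 to 1.42 for CG34166, each resting on the likeness of 1 male and 1 female difference. For CG34040 both were exactly -1.0, from 4 against 9 FPKM in males and a listed 0 against 1 in females. Its narrow interval thus hangs on rounding to whole numbers. With all 8 libraries its mean difference was -0.45 with a pseudocount of 5 and -1.33 with 0.5.

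Levels also differed between the sexes. The choice of members did not use that difference, but the fit holds the ND and HFD libraries on which they were chosen, and its error is smaller for genes that respond alike in both sexes, so the p-values are not independent of the choice. CG11911 was higher in females on 4 of 4 diets, by a mean of 1.83 on the log2 scale (SE 0.13, 95% interval 1.49 to 2.16; limma, adjusted p 0.000623). CG43680 was higher in females on 4 of 4 diets, by 0.76 (SE 0.10, 95% interval 0.51 to 1.00; limma, adjusted p 0.00233). CG34040 was lower in females on 4 of 4 diets, at -1.91 (SE 0.35, 95% interval -2.80 to -1.01; limma, adjusted p 0.00644), and CG34166 likewise, at -2.80 (SE 0.41, 95% interval -3.85 to -1.76; limma, adjusted p 0.00326). CG14963 did not pass (-0.44, SE 0.27; limma, adjusted p 0.197), and without either ND library its difference was -0.13. A sex difference was common among all genes, with 39.6% higher and 27.3% lower in females, 67.0% in all, so that 4 of 5 members is near the background. Of all genes, 43.1% were higher in females on 4 of 4 diets and 30.0% lower. The 4 female libraries all lay above the 4 male ones for 39.0% of genes and all below for 24.9%, but for each of the 5 members the libraries of the sexes overlapped. The median of all genes was 0.15, and relative to it the members' differences were -0.59, 1.68, 0.60, -2.06 and -2.96 in the order CG14963, CG11911, CG43680, CG34040 and CG34166. The sexes stand in separate deposited tables, and whether these were scaled together is not given in the sources used here. Of the genes called, 59.2% were higher in females, a share that became 44.9% after median-centring. That centring took off each library's own median. It moved the differences by more than 0.15, that of CG14963 from -0.44 to -0.70. In the additive model a diet left with 1 library adds nothing to the sex difference, so dropping either ND library gives the same estimate. The call for CG34040 was lost without either ND library. Without the ND male, without the ND female or on the 6 high-fat libraries alone its difference was -1.74 (limma, adjusted p 0.0521 in each), and with a pseudocount of 5 it was -1.09 (limma, adjusted p 0.0202). On the 4 HFD+QG and HFD+EGCG libraries alone, which the choice did not use, the differences of CG14963, CG11911, CG43680, CG34040 and CG34166 were -0.32, 1.96, 0.60, -2.32 and -3.33. All 5 passed there (limma, adjusted p 0.0149 to 0.0393), as did 4877 of the 9848 genes, with an error that rests on 1 residual degree of freedom.

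For some members the sex difference stood at unlike values on the 4 diets, which 1 library per group cannot test. For CG34166 the female minus male difference was -1.21 on ND (560 FPKM in the male, 241 in the female) and -3.35, -3.57 and -3.09 on HFD, HFD+QG and HFD+EGCG. CG14963 was at 17 FPKM in ND males and 6 in ND females, but at 58 and 70 FPKM on HFD. For CG43680 the 4 differences lay between 0.54 and 0.98, and for CG11911 between 1.43 and 2.15.

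**Figure D4:**
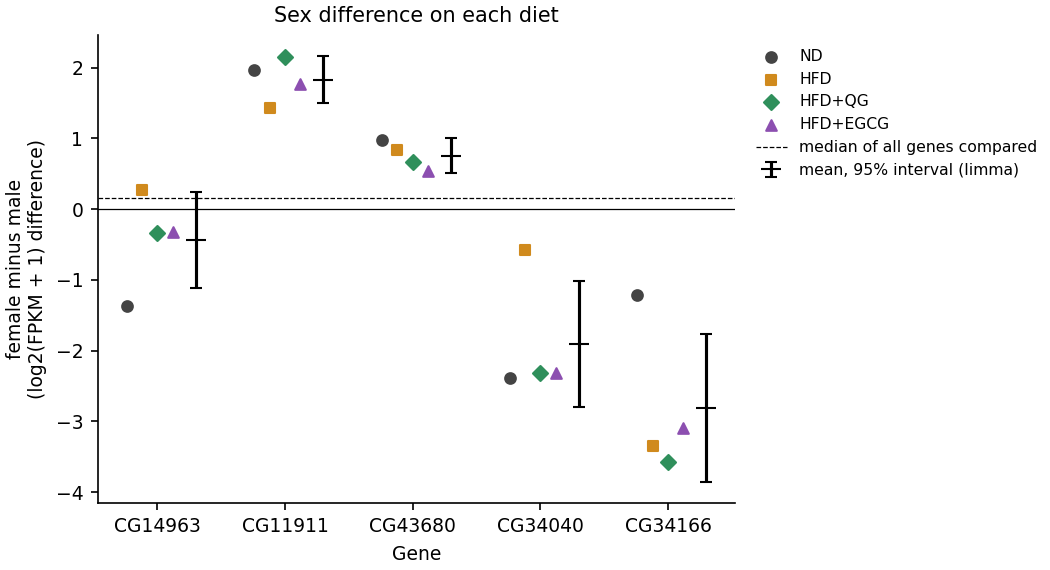
Female minus male difference of log2(FPKM + 1) (vertical axis) for each gene (horizontal axis) on each of the 4 diets (symbols), with the mean and its 95% interval from limma (black) and the median of all genes, 0.15 (dashed). CG11911 and CG43680 lie above 0 and CG34040 and CG34166 below 0 on 4 of 4 diets, with means of 1.83, 0.76, -1.91 and -2.80.

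The genes beside the members were then examined, taking the 3 on each side by start position. Of these 30 genes, 16 were among the genes compared, and none of the 16 was at least 2-fold different in the same direction in both sexes. Over all genes 0.447% were so higher and 0.609% lower, so none of 16 is near that background. In males 1 passed 2-fold upward and 2 downward, and in females 5 and 0. The shares over all genes were 1.62% and 2.98% in males and 14.9% and 5.22% in females. The medians of the 16 were 0.01 in males and 0.61 in females, where the medians of all genes were 0.00 and -0.12.

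CG34040 sits in a row of DUF753 genes. CG13492, CG34040, CG4363 and CG4377 follow each other on the minus strand of 2R, and CG4363 lies 678 bp from CG34040. CG4363 was at 488 FPKM on ND and at 98, 106 and 235 FPKM on HFD, HFD+QG and HFD+EGCG in males, and at 176, 102, 45 and 68 FPKM in females. CG4377 was at 151, 40, 41 and 90 FPKM for the males and at 68, 72, 37 and 52 FPKM in females. In males CG34040, CG4363 and CG4377 thus shared the order ND, HFD+EGCG, HFD+QG, HFD from high to low. CG13492, on the other side, was at 27, 17, 17 and 22 FPKM for the males and at 26, 47, 45 and 47 FPKM in females. Of the 7 other DUF753 genes, 3 were at least 2-fold lower on HFD in males and 0 in females, and 0 were at least 2-fold higher in either sex. Over all genes 2.98% were lower in males and 5.22% in females, and 1.62% and 14.9% were higher. The medians of the 7 were -0.67 and 0.08. CG34040 had the lowest difference of the 8 in each sex, which is the difference it was chosen on.

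CG11911 lies between a pair of genes of its own protease family. CG11912, 1019 bp away, was at 10, 22, 15 and 24 FPKM for the males and at 70, 73, 76 and 62 FPKM in females, diets in the same order. CG33127, 852 bp away on the other strand, was at 82, 77, 65 and 108 FPKM for the males and at 107, 228, 180 and 217 FPKM in females. Each was thus at least 2-fold higher on HFD in 1 sex, CG11912 in males and CG33127 in females. CG11911 was higher in both, which is how it was chosen. Plc21C, around all of them, was at 11 to 17 FPKM in the 8 libraries.

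Within the chymotrypsin family of peptidase S1A, 117 other genes were compared. On HFD 3 of them passed 2-fold upward and 7 downward in males, against 25 and 11 in females, with medians of -0.02 and 0.13. In each sex some passed only by the single step between a listed 0 and 1 FPKM. In males CG9897 did so upward and CG18179 downward. Over all genes the shares were 1.62% and 2.98% in males and 14.9% and 5.22% in females. None of the 117 was at least 2-fold higher in both sexes, against 0.447% of all genes. In both sexes 3 were lower, against 0.609% of all genes. Those 3 were Jon25Bi, Jon99Ci and CG18180, named here after their values were seen. CG18180 was at 165, 23, 8 and 18 FPKM for the males and at 858, 255, 299 and 297 FPKM in females. CG11911 had the highest HFD minus ND difference of the 118 in males and ranked 8 in females, which is the difference it was chosen on. By level it went from place 40 of 227 family genes on ND to place 14 on HFD in males and from place 20 to place 10 in females.

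CG14963 had 6 other genes with the insect allergen-related feature, and 4 of them were compared. CG3906, the most abundant, was at 818, 989, 965 and 1318 FPKM for the males and at 626, 1794, 1384 and 1541 FPKM in females. CG13905 was at 111, 67, 143 and 166 FPKM for the males and at 100, 175, 129 and 231 FPKM in females. None of the 4 was at least 2-fold different in males, and 1 was higher and 1 lower in females. The higher one was CG3906. The lower one, CG4398, stood at 7 FPKM in the ND female library and 3 in the HFD one. Its difference of -1.0 just met the bound, at levels of few rounding steps. Among all genes compared, the female libraries had 14.9% past 2-fold upward and 5.22% downward. For the male libraries these shares were 1.62% and 2.98%. With only 4 genes, no departure from these shares can be judged. Beside CG14963, CG14964 was at 17, 24, 21 and 22 FPKM for the males and at 5, 13, 12 and 15 FPKM in females, and CG32278, whose exon it overlaps, was at 49 to 69 FPKM for the males and at 62 to 74 FPKM in females.

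The nearest neighbour of CG43680 is CG18649, 216 bp away on the same strand, named here after its values were seen. It was at 4, 7, 5 and 5 FPKM for the males and at 0, 4, 2 and 3 FPKM in females, so that HFD stood above ND in both sexes, by 0.68 and 2.32 on the log2(FPKM + 1) scale, at levels of few rounding steps. CG43679, on the same strand, was at 474, 480, 494 and 606 FPKM for the males and at 199, 310, 334 and 283 FPKM in females. CG12310 was at 26 to 35 FPKM in males and 3 to 5 in females. Around CG34166 all 6 neighbouring genes were listed at 0 in the 8 libraries, so this gene stood alone in its stretch of 2L.

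**Figure D5:**
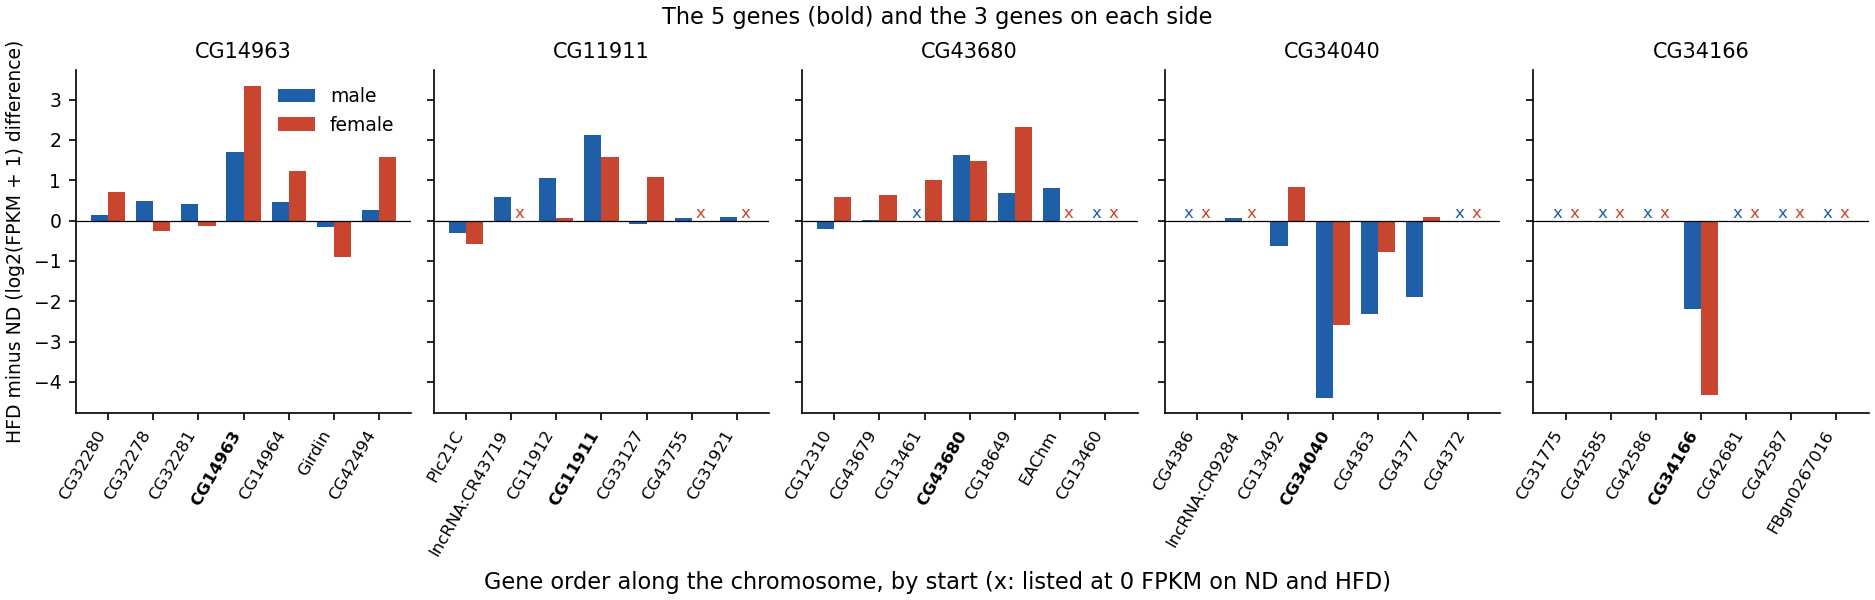
HFD minus ND difference of log2(FPKM + 1) (vertical axis) for each of the 5 genes (bold) and the 3 genes on each side in chromosome order (horizontal axis), males in blue and females in red, 1 library per diet and sex. A cross marks a gene listed at 0 on both diets in that sex. CG4363 and CG4377 beside CG34040 reach -2.30 and -1.89 in males, and all 6 neighbours of CG34166 are listed at 0.

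Finally, the genes whose pattern over the diets was most like that of each member were listed by Pearson's r over the 8 libraries after each sex's own mean was taken off, among 117 other genes (118 for CG34040) with a mean of at least 10 FPKM and a range of at least 1 log2 unit in each sex. These r share their libraries and rest largely on the ND libraries, so they are a description. For CG14963 they were CG18643, a gene with a D-aminoacyl-tRNA deacylase domain (r 0.996), the corneal lens gene retinin (0.988), the lysozyme gene LysP (0.984) and CG16762 (0.971). LysP was at 217, 321, 410 and 478 FPKM for the males and at 233, 542, 517 and 549 FPKM in females. For CG11911 they were CG18643 (0.948), the dehydrogenase-like CG12116 (0.946), retinin (0.940) and CG43680 (0.937). Over the 6 high-fat libraries alone the r of CG11911 with these 4 lay between -0.90 and 0.21.

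CG43680 was closest to the metallothionein gene MtnB (0.964), whose product binds metals, to the small heat shock gene Hsp22 (0.953), to the M13 peptidase gene CG9505 (0.938) and to CG11911 (0.937). MtnB was at 99, 448, 367 and 451 FPKM for the males and at 66, 445, 204 and 227 FPKM in females, so that it too was lowest with QG among the high-fat libraries of each sex. CG34040 was closest to the starch-digesting amylase gene Amy-p (0.991), the maltase genes Mal-A8 (0.984) and Mal-A6 (0.982) and the Kunitz-type protease inhibitor gene CG16704 (0.978). Over the 6 high-fat libraries alone these r were 0.961, 0.869, 0.925 and 0.901. Amy-p was at 1110, 310, 375 and 464 FPKM for the males and at 1407, 516, 418 and 593 FPKM in females, an order that CG34040 shared in males. CG34166 was closest to the Jonah midgut protease genes Jon25Bi (0.973) and Jon99Ci (0.961), the storage protein gene Lsp1beta (0.954) and CG2233 (0.948), and over the 6 high-fat libraries these r lay between -0.69 and 0.38. Jon25Bi, Jon99Ci, Amy-p and Mal-A6 are also in the midgut list above, and Lsp1beta is in the fat body list. Between members, r over the 8 libraries lay at 0.937 for CG11911 with CG43680, 0.927 for CG11911 with CG14963 and 0.828 for CG34040 with CG34166, a likeness that follows from how they were chosen. Over the 6 high-fat libraries these were 0.21, -0.33 and -0.12, while the 10 pairs of members lay between -0.84 for CG34166 with CG43680 and 0.96 for CG14963 with CG34040. The pairs with CG34040 again rest on its low rounded values.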

How the data were processed

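RNA from 8 libraries of Drosophila melanogaster was analysed, 1 for each of 4 diets in each sex. The deposited values are FPKM for each FlyBase transcript that the authors rounded to whole numbers, and they were handled as a score, since no counts stand behind them. The submitters' processing notes name CASAVA 1.8.2, TopHat2 2.1.1 and Cuffdiff 2.2.1 without parameters. A genome build and any scaling between libraries are not given in the sources used here. Libraries were made with a strand-specific kit, per the labels' protocols. Of 17431 genes with a location both in the tables and in BDGP6.54 (Ensembl release 115), 17286 (99.2%) had the same bounds, and its gene models were used for exons, strand and coding length.

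Transcript FPKM were summed per gene. Summed FPKM per library lay between 885956 and 1000513. Depth is unknown, so no interval for counting error is given, and a listed 0 stands for under 0.5 FPKM per transcript or a failed estimate. Differences are of log2(FPKM + 1), which understates changes of low genes. Genes at 1 FPKM or more in at least 1 library of each sex were compared. limma 3.58.1 in R 4.3.3 fitted sex and diet additively, with 3 residual degrees of freedom and a trended prior, with Benjamini-Hochberg adjustment at 0.05, and was tested on simulated data. A sex-specific response to diet enters its error. Other steps used Python 3.11.15.

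The members, lists and rules were chosen with earlier results of these data known. Named beside the members were the 3 genes on each side, the genes sharing an annotated family, where at 10 FPKM or more in any library, and the 4 genes most alike. Searches by protein or promoter sequence were not run.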

Additional observations from a re-analysis of the deposited data

Results flagged for a closer look

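Several differences between diets had opposite signs in the sexes, with 1 library on each side, and whether the sexes differed was not tested. On the log2(FPKM + 1) scale, each value here is the female difference minus the male one. For QG against HFD it was -0.60 for CG14963 (0.40 in males, -0.20 in females), 0.73 for CG11911 (-0.45 and 0.28) and -1.74 for CG34040 (0.74 and -1.0), the last from values of 0 to 4 FPKM. For EGCG against HFD it was 0.34 for CG11911 (-0.12 and 0.22) and -0.29 for CG43680 (0.14 and -0.15). For QG against EGCG it was 0.39 for CG11911 (-0.33 and 0.06).

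Of the neighbours and the genes sharing the DUF753 or allergen-related feature, at 10 FPKM or more in any library, 9 had opposite signs of HFD minus ND in the sexes. By set these were 6 of 14 neighbours, 4 of 5 DUF753 genes and 1 of 2 allergen-related genes, with some genes in more than 1 set. Opposite signs were common, at 43.1% of all genes compared and 39.3% of the 117 other S1A protease genes, which are not named singly here. Those shares are without the 10 FPKM bound, and with it 39 of 88 S1A genes had opposite signs. The female minus male value was 1.97 for CG4377 (-1.89 in males, 0.08 in females) and 1.47 for CG13492 (-0.64 and 0.83), both DUF753 genes beside CG34040. Other DUF753 genes were CG15347 (0.97) and CG10650 (1.00). CG13905, which shares the allergen-related feature of CG14963, had 1.52, and CG33127, the protease gene beside CG11911, had 1.17. The remaining ones were CG12310 (0.80) beside CG43680 and CG32278 (-0.74) and CG32281 (-0.55) beside CG14963.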

How the results depend on the processing

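HFD minus ND kept its sign for all 5 genes in both sexes under 5 alternatives (pseudocounts of 0.5 and 5, a common FPKM sum, median-centring, the highest transcript in place of the sum). With a pseudocount of 5, CG34040 went to -3.26 in males and -1.42 in females and CG14963 to 2.77 in females. For females against males, CG11911, CG43680 and CG34166 passed limma under all 18 alternatives (highest adjusted p 0.0375, 0.0393 and 0.0298). CG34040 passed under 15 of them, and CG14963 under 1, the 4 HFD+QG and HFD+EGCG libraries alone, a fit chosen after seeing the data. The alternatives are not separate checks, since leaving out the male or the female library of a diet gives the same sex difference. The failures of CG34040, without either ND library or without both, share 1 estimate, -1.74. QG minus EGCG passed for no gene under any of the 18 alternatives. Leaving out 1 library, it lay between -0.36 and 0.079 for CG11911 and between -0.18 and 0.84 for CG34166, and both signs turned without the HFD+QG male (limma, adjusted p 1 for both). Genes called between the sexes numbered 6594, against 9932 with no filter, 4022 at an FPKM of at least 10 and 4721 to 6986 leaving out 1 library.

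Counts of 2-fold genes depended on low values. With a pseudocount of 5 and at an FPKM of at least 10, HFD minus ND gave 156 and 163 in males (453 as reported) and 533 and 712 in females (1980). QG minus HFD gave 71 and 70 in males (267), and 135 with a common sum, and 60 and 66 in females (417). EGCG minus HFD gave 80 and 81 in males (311), and 171 with a common sum, and 55 and 53 in females (412). By Spearman's rho, 1 of the 4 genes most like CG11911 and 2 of those most like CG34040 were again among the first 4. No pairing of replicates was possible because each combination of diet and sex has 1 library. The diet term already sets the male and female libraries of a diet side by side. Depth is unknown, and values under about 10 FPKM move by whole rounding steps.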
